A study of Mus musculus with 3 samples.

Results

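The circadian clock genes Per1, Per2, Per3, Cry1, Cry2, Arntl, Clock, Nr1d1, Nr1d2 and Dbp were followed across cell classes of the mouse hippocampus. They were chosen by symbol as core clock components plus the clock output regulator Dbp, and these 10 genes were all found among the 32285 gene rows of the deposited tables. By its title the study concerned cognitive impairment after doxorubicin, an anthracycline chemotherapy drug, and the effect of blocking HDAC6, a cytoplasmic deacetylase. Nuclei were isolated with Triton X-100 from frozen hippocampus and sequenced with a droplet method that counts the 3' ends of transcripts as unique molecular identifiers (UMIs). The 3 groups were an untreated control, doxorubicin, and doxorubicin plus ACY-1083, the HDAC6 inhibitor. Each group was 1 library made from the hippocampi of 4 pooled mice. The labels give no dose, strain, sex or age. They also give no hour of tissue collection, so a difference in collection time and a difference in treatment cannot be told apart.

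The mammalian clock is a transcriptional loop. The proteins CLOCK and ARNTL (also called BMAL1) bind E-box sequences as a pair and switch on the Per and Cry genes, whose proteins then repress that pair. In a second loop the nuclear receptors encoded by Nr1d1 and Nr1d2 (REV-ERB alpha and beta) repress Arntl, and Dbp, itself driven from E-boxes, acts on D-box sequences. Transcripts of Arntl and those of the Per genes and Dbp are known to peak at roughly opposite times of day in most tissues. Astrocytes as well as neurons carry the loop.

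Promoter sequences are shown for the genes that hold a clock motif in the window searched (Per1, Per3, Cry1), and for Nr1d1 and Dbp, on which the comparison with doxorubicin turns. They come from RefSeq on build GRCm38.p6, which held 9 of the 10 genes (all but Per2), and cover up to 250 bases before the transcript start. Bases that overlap an annotated exon were searched for motifs but left off the sequences shown. The windows lie at chr11:69098699-69098947 on the plus strand (Per1), chr4:151044666-151044915 on the minus strand (Per3), chr10:85185065-85185304 on the minus strand (Cry1), chr11:98775378-98775627 on the minus strand (Nr1d1) and chr7:45704997-45705087 on the plus strand (Dbp). The Per1 window lies inside the span that GENCODE gives for the gene. Sequences run 5′ to 3′ on the gene's strand, and capitals mark an E-box (CACGTG) or a D-box (TTATGNAA, either strand).
Per1: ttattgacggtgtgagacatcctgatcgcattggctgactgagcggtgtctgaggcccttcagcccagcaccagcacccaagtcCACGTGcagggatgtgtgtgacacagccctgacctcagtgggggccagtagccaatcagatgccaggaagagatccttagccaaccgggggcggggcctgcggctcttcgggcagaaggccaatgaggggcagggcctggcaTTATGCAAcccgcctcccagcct
Per3: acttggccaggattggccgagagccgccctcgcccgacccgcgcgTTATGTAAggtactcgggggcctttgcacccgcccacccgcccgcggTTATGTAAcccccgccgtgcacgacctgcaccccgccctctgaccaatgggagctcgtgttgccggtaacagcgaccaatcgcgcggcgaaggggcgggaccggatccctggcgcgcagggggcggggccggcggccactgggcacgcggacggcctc
Cry1: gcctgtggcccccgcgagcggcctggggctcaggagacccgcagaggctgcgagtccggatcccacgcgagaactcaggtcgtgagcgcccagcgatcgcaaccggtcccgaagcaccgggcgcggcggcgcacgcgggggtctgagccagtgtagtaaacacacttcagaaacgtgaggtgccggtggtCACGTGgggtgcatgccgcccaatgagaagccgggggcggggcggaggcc
Nr1d1: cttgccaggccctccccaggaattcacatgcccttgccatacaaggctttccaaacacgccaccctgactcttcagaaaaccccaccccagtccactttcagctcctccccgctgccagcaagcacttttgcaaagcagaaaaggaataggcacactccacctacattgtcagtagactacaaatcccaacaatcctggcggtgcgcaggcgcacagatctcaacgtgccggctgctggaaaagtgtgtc
Dbp: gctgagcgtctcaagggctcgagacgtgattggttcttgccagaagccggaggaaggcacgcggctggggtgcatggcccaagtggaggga
Per1 held an E-box whose first base lay 166 bases before the start and a D-box at 24 bases, Per3 held D-boxes at 205 and 158 bases, and Cry1 held an E-box at 60 bases. Of 32851 RefSeq windows of 250 bases, 6.02% held the E-box and 3.07% the D-box. The REV-ERB and ROR response element (0.177% of windows) and the cyclic AMP response element (TGACGTCA, 1.55%) were also searched on both strands and matched none of the 9 windows. The Nr1d1 and Dbp windows held none of these letters over the 250 bases searched. For Dbp, 159 of those bases were left off the sequence shown.

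Before the values, the libraries need a description, since 1 of them stands apart. Per the file headers the control and doxorubicin tables came from Cell Ranger 4.0.0 and the doxorubicin plus ACY-1083 table from Cell Ranger 5.0.0. The first 2 libraries held 19175447 and 21458785 UMIs with a median of 1487 and 1485 per barcode, and the third held 62151258 with a median of 3912.5. Between the third library and doxorubicin, the ratio of a gene followed the total length of its introns (Spearman 0.61 over 18576 genes, which are not independent replicates), from a median log2 ratio of -1.45 in the bin with the shortest introns to 1.68 in the bin with the longest, of 10 bins with like numbers of genes. Between doxorubicin and control that Spearman value was -0.08. The libraries shared 42 barcodes (control and doxorubicin), 29 (control and doxorubicin plus ACY-1083) and 46 (doxorubicin and doxorubicin plus ACY-1083). After filters on genes, mitochondrial share and doublets, 10455, 11647 and 11846 nuclei were kept, and 11 classes named from marker genes had at least 100 nuclei in every library: 5 neuronal and 6 others.

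Levels are given as CPM, a gene's UMIs divided by all UMIs of the class in that library and scaled to counts per 1e6, with a 95% exact Poisson interval that covers counting error only. No test between groups was possible with 1 library per group, so no p-value is given. Levels were compared within a gene and not between genes.

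In the control library, astrocyte-like nuclei had the highest level of 6 of the 10 genes: Per2, Per3, Cry2, Nr1d1, Nr1d2 and Dbp. For Cry2, Nr1d1, Nr1d2 and Dbp, astrocyte-like nuclei were first among the 11 classes in each of the 3 libraries. Clock ran the other way and was lowest in astrocyte-like nuclei in each library. Few neighbours in these orders were separated: of 10 neighbouring pairs of classes, 8 to 10 had overlapping intervals for every gene and library.

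**Figure D1:**
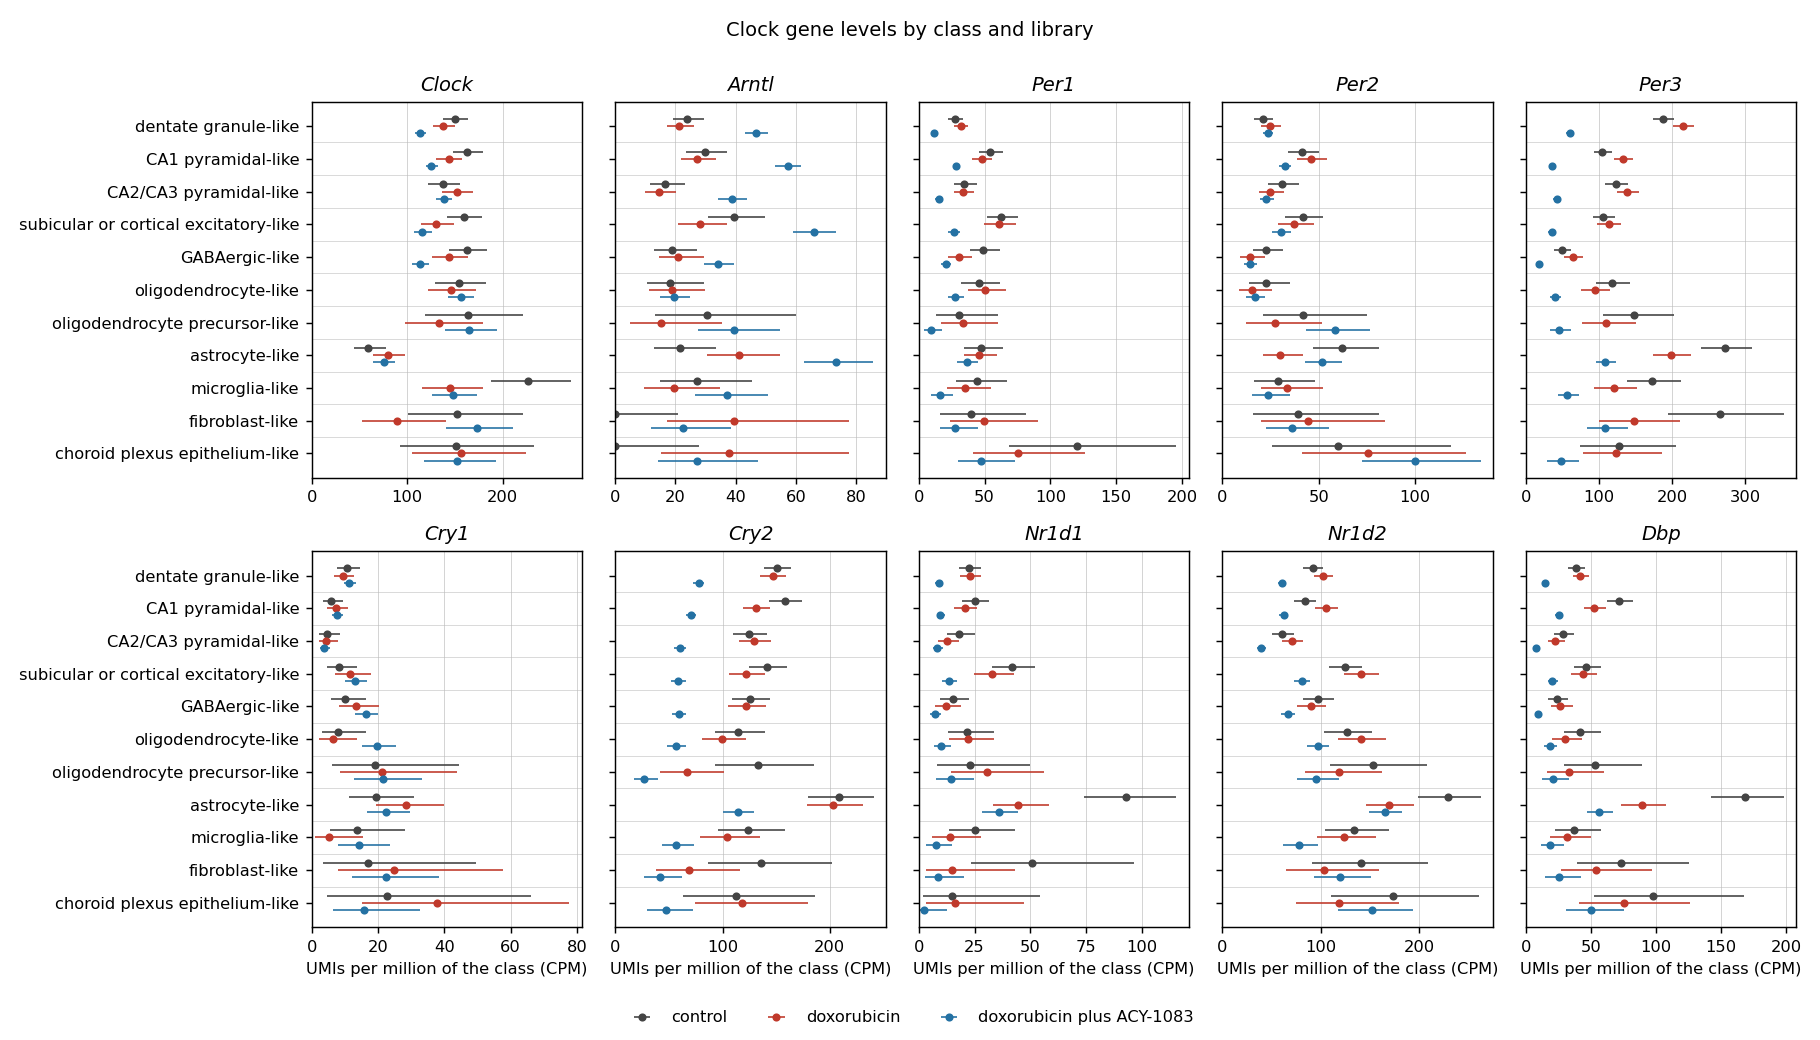
Clock gene levels in CPM (x axes, linear, a separate scale for each gene) in the 11 marker-named classes (y axis), with 1 colour for each of the 3 libraries. Points are single libraries and bars are 95% exact Poisson intervals; Dbp and Nr1d1 are highest in astrocyte-like nuclei in each library and Clock is lowest there.

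The activators come first. Clock encodes the DNA-binding partner of ARNTL and was nearly even over the neuron classes, at 137.8 to 163.2 CPM in control, 130.6 to 152.3 with doxorubicin and 113.8 to 138.5 with doxorubicin plus ACY-1083. Astrocyte-like nuclei had 58.9 (44.0 to 77.3, 52 UMIs), 79.8 (64.4 to 97.8, 93 UMIs) and 75.2 (64.3 to 87.5, 168 UMIs) in the same order. These astrocyte-like intervals lay below the interval of every neuron class in the same library. Microglia-like nuclei had the highest control level of Clock, 227 CPM (188 to 272), against 144.9 with doxorubicin and 148.4 with doxorubicin plus ACY-1083.

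Arntl, the partner of Clock and the target of the REV-ERB receptors, had a class order that was not kept between control and doxorubicin (Spearman -0.15 over 11 classes, points that share each library's depth). In astrocyte-like nuclei it stood at 21.5 CPM (13.0 to 33.6, 19 UMIs) in control, sixth of the 11 classes. The same nuclei had 41.2 CPM (30.4 to 54.6, 48 UMIs) with doxorubicin and 73.5 CPM (62.6 to 85.6, 164 UMIs) with doxorubicin plus ACY-1083, first in both libraries. Fibroblast-like and choroid plexus epithelium-like nuclei had 0 Arntl UMIs in control. A count of 0 allows up to 16.9 and 22.6 CPM there (3 counts), and the exact intervals reach 20.8 and 27.8 CPM. With doxorubicin 8 and 7 UMIs made 39.5 CPM (17.05 to 77.8) and 37.7 CPM (15.2 to 77.7), intervals that overlap those of control. Such an overlap does not show that the levels were alike. With under 40 UMIs over the 2 libraries, both pairs were left out of the ratios below. An antisense gene overlaps Arntl, and neither labels nor headers state whether counting used strand.

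Among the repressors, Per3 differed widely between classes. Its control level was 273 CPM (240 to 310) in astrocyte-like nuclei, 265 (195 to 353) in fibroblast-like nuclei, 188 (174 to 202) in dentate granule-like neurons and 49.2 (38.9 to 61.4) in GABAergic-like neurons. GABAergic-like neurons were lowest for Per3 in each library, at 64.2 CPM with doxorubicin and 18.4 with doxorubicin plus ACY-1083. The Per3 gene overlaps Camta1 on the same strand, so reads in the overlap cannot be assigned with certainty.

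Per1 and Per2 encode PERIOD repressors and are also induced by signals that reset the clock. Per1 was highest in choroid plexus epithelium-like nuclei in each library, on 16, 14 and 21 UMIs (120.5, 75.5 and 47.6 CPM). Among neurons it was highest in subicular or cortical excitatory-like and CA1 pyramidal-like classes, with 62.7 and 54.4 CPM in control against 27.4 in dentate granule-like neurons. Per2 had the same 2 neuron classes on top in control, at 41.6 and 41.5 CPM, and 21.1 in dentate granule-like neurons. For both genes the control intervals of these 2 classes overlapped each other and lay above that of the granule neurons.

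The cryptochromes, the other arm of the repressor complex, differed in depth. Cry2 ran from 113 to 208.5 CPM over the classes in control. Cry1 was near the limit of these libraries: 161, 208 and 694 UMIs over all kept nuclei, or 8.87, 10.3 and 11.7 CPM. Astrocyte-like nuclei had 19.3, 28.3 and 22.4 CPM of Cry1, second in each library, and CA2/CA3 pyramidal-like neurons were lowest in each, at 4.53, 4.24 and 3.72 CPM.

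Nr1d1, Nr1d2 and Dbp had astrocyte-like control intervals above those of every neuron class. Dbp, a D-box activator, stood at 168.8 CPM (143 to 198, 149 UMIs) in astrocyte-like nuclei in control, against 23.96 to 72.05 over the neuron classes. Nr1d1 stood at 92.9 CPM (73.9 to 115, 82 UMIs) against 15.1 to 41.6. Nr1d2 stood at 229 CPM (198 to 263, 202 UMIs) against 60.9 to 124. CA1 pyramidal-like neurons were the neuron class with most Dbp in each library, at 72.05, 52.7 and 25.3 CPM. On the genome Nr1d1 overlaps Thra and Dbp overlaps Sphk2, both on the opposite strand. This bears on their reads only if counting ignored strand, which neither labels nor headers state.

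Free RNA can carry transcripts between nuclei of 1 library. The 10 astrocyte markers summed to 14616, 13672 and 10643 CPM in astrocyte-like nuclei and to 452, 496 and 253 CPM in the summed neuron classes (control, doxorubicin, doxorubicin plus ACY-1083). In the same order, Dbp had 168.8, 89.3 and 56.4 CPM in astrocyte-like nuclei and 44.0, 39.5 and 16.6 CPM in the summed neurons. The part of free RNA in the neuronal levels of the clock genes was not tested.

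The first comparison asks how the clock genes differed between doxorubicin and control, 2 libraries made with the same software version. A pair of gene and class was compared where the 2 libraries together gave at least 40 UMIs, which left 78 of 110 pairs. All 10 genes passed in astrocyte-like nuclei, Cry1 in only 2 classes. Ratios had 0.5 counts added to each side, and a pair was counted past 1.5-fold in either direction. Of the 78 pairs, 9 were past 1.5-fold lower (11.5%) and 1 was past 1.5-fold higher (1.28%). Over all genes and the same classes, 4.23% of pairs were past 1.5-fold lower and 3.62% past 1.5-fold higher. The median log2 ratio was -0.16 over the clock pairs and -0.04 over all pairs.

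Astrocyte-like nuclei held 4 of those 10 pairs. There 3 of 10 clock genes were past 1.5-fold lower (4.95% of all 8116 genes with the minimum) and 1 past 1.5-fold higher (4.39%). These shares were not matched for UMIs, and Arntl rested on 19 and 48 UMIs and Per2 on 55 and 35. In simulated counts of this class, 6.46% of unchanged genes passed 1.5-fold in either direction by counting error alone. Per2 went from 62.3 CPM in control to 30.04 with doxorubicin, a ratio of 0.484 (95% exact Clopper-Pearson interval 0.306 to 0.750). Nr1d1 went from 92.9 to 44.6 CPM, a ratio of 0.482 (0.333 to 0.688). Dbp went from 168.8 to 89.3 CPM, a ratio of 0.529 (0.407 to 0.684). Arntl was the gene on the other side, from 21.5 to 41.2 CPM, a ratio of 1.88 (1.104 to 3.45).

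The other astrocyte-like genes were under 1.5-fold. Per3 had a ratio of 0.729 (0.606 to 0.877) and Nr1d2 of 0.739 (0.604 to 0.903), so both intervals lay under 1. Clock at 1.35 (0.955 to 1.94) and Cry1 at 1.45 (0.796 to 2.81) had intervals that crossed 1. Cry2, with 184 and 237 UMIs, was at 0.975 (0.801 to 1.19), and Per1 at 0.953 (0.625 to 1.47). In the astrocyte-like nuclei, then, Per2, Per3, Nr1d1, Nr1d2 and Dbp had intervals under 1 and Arntl had an interval above 1. These intervals cover counting error between 1 library and 1 library only. The share of all genes with intervals that leave out 1 was not taken, so only the 1.5-fold counts have a background.

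**Figure D2:**
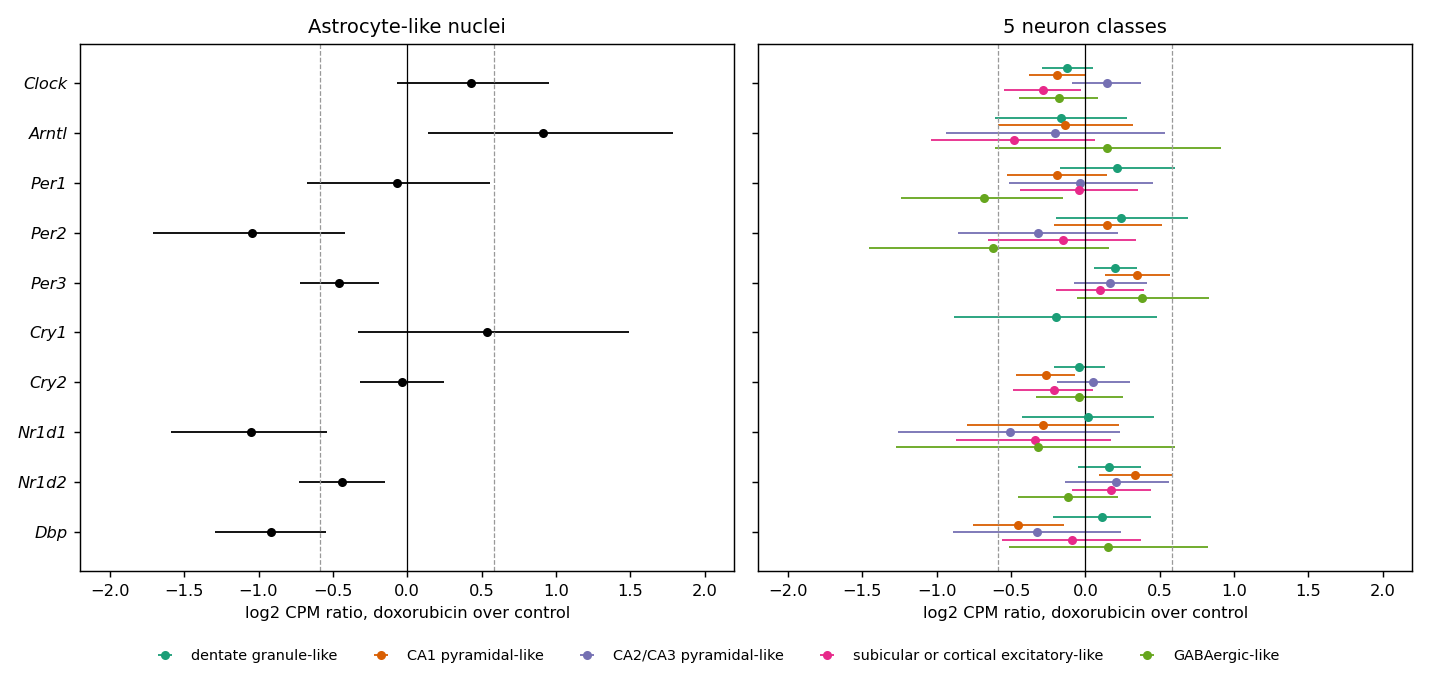
Log2 ratio of CPM, doxorubicin over control (x axes), for each clock gene (y axis) in astrocyte-like nuclei (left) and in the 5 neuron classes (right), for pairs with at least 40 UMIs. Points are ratios of 1 library to 1 library, bars are 95% exact Clopper-Pearson intervals and dashed lines mark 1.5-fold; Per2, Nr1d1 and Dbp lie past the lower line in astrocyte-like nuclei and Arntl past the upper one.

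Technical values of the astrocyte-like class in these 2 libraries were as follows. It held 988 and 1172 nuclei with median UMIs of 805 and 856, mostly from 1 shared cluster (953 and 1141 nuclei). Markers of the neuron classes summed to 2152 and 2139 CPM in it, and mitochondrial transcripts to 0.0811% and 0.0983%. Each of the 10 astrocyte markers was detected in both libraries, the lowest being Gli3 at 95.2 and 83.2 CPM. Ttr, an abundant choroid plexus transcript, did move with the comparison, from 2411 to 4650 CPM in the astrocyte-like class and from 1020 to 2279 CPM in the summed neuron classes, and its part in the result was not tested. Over the alternatives of processing, the astrocyte-like ratio ran from 0.467 to 0.557 for Per2, 0.476 to 0.590 for Nr1d1, 0.432 to 0.539 for Dbp and 1.86 to 2.08 for Arntl, wherever the minimum was met.

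Neuron classes had smaller differences. Of 46 neuronal pairs with the minimum, 2 were past 1.5-fold lower (4.35%, against 3.29% of all gene pairs) and 0 past 1.5-fold higher (against 2.54%). Both were in GABAergic-like neurons. Per1 had 49.2 CPM in control and 30.5 with doxorubicin, a ratio of 0.623 (0.424 to 0.8998). Per2 had 22.7 and 14.6 CPM, a ratio of 0.649 (0.364 to 1.12), on 36 and 23 UMIs. The Per2 call was lost when doublets were kept, at Leiden resolution 0.5 and when the third library was not clustered, with a ratio of up to 0.800.

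Per3 and Nr1d2, which were lower in astrocyte-like nuclei, were not lower in most neurons. Per3 was higher with doxorubicin in 5 of 5 neuron classes, by 1.07-fold to 1.30-fold. In CA1 pyramidal-like neurons it went from 104.8 (93.0 to 117.7) to 133.6 CPM (121.1 to 146.9). In dentate granule-like neurons it went from 187.7 (173.95 to 202.35) to 215.9 CPM (201.87 to 230.6), intervals that barely overlapped. In the remaining neuron classes the Per3 intervals of control and doxorubicin also overlapped. Intervals of 2 levels can overlap although the interval of their ratio leaves out 1. Nr1d2 was higher in 4 of 5 neuron classes, with ratios from 0.923 to 1.26 over the 5. In those 5 classes Dbp had ratios from 0.732 to 1.11, with 2 of 5 above 1, and Nr1d1 from 0.705 to 1.01. Arntl was lower in 4 of 5, with ratios from 0.718 to 1.11. Over all genes, 56.7% of pairs in the neuron classes had a ratio under 1.

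The remaining pairs past 1.5-fold lay in sparse classes. Clock in microglia-like nuclei had 227 CPM in control and 144.9 with doxorubicin, a ratio of 0.640 (0.476 to 0.854). Cry2 in oligodendrocyte precursor-like nuclei had 133.5 and 66.9 CPM, a ratio of 0.505 (0.280 to 0.878). In fibroblast-like nuclei Per3 had 265 and 148 CPM, a ratio of 0.561 (0.341 to 0.901), and Clock had 152.5 and 88.9 CPM, a ratio of 0.588 (0.302 to 1.098). These rest on 18 to 117 UMIs per library. The Per3 call in fibroblast-like nuclei was lost with at least 600 genes per nucleus, at 0.783, and the Clock call in microglia-like nuclei was lost relative to the intron-length bin, at 0.668.

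Summed over all kept nuclei, 0 of the 10 genes were past 1.5-fold (1.55% of all genes lower, 1.76% higher). Nr1d1 had the lowest ratio, 0.765 (0.673 to 0.869), from 28.97 to 22.2 CPM, and Dbp followed at 0.829 (0.755 to 0.910), from 52.2 to 43.2 CPM. Per3 was at 1.08 (1.02 to 1.14), from 128.6 to 138.3 CPM, and Arntl at 0.971 (0.853 to 1.11). The astrocyte-like value of Per3 was thus on the other side of 1 from that of the summed nuclei. For Arntl the interval of the summed nuclei crossed 1, and the ratio ran from 0.930 to 1.015 over the alternatives of processing.

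A ratio of astrocyte-like nuclei to neurons within 1 library does not depend on the level of the library as a whole. It was taken after the ratios above had been seen, so it describes the same nuclei another way. Dbp was 3.84-fold higher in astrocyte-like nuclei than in the 5 summed neuron classes in control (3.17 to 4.61), 2.27-fold with doxorubicin (1.81 to 2.79) and 3.40-fold with doxorubicin plus ACY-1083 (2.78 to 4.11). Nr1d1 gave 3.85-fold (2.96 to 4.91), 2.201-fold (1.59 to 2.95) and 3.82-fold (2.95 to 4.84). Per2 gave 2.03-fold (1.49 to 2.68), 0.995-fold (0.675 to 1.39) and 2.03-fold (1.65 to 2.45). For these 3 genes the doxorubicin library had the smallest ratio and the other 2 had overlapping intervals.

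The doxorubicin library was also lowest for Per3 and Nr1d2. Per3 gave 2.16-fold, 1.33-fold and 2.62-fold, and Nr1d2 gave 2.54-fold, 1.68-fold and 2.72-fold. Arntl stood lowest in control, at 0.858-fold (0.497 to 1.33), with 1.86-fold (1.33 to 2.51) for doxorubicin and 1.497-fold (1.27 to 1.75) after ACY-1083 was added. Clock gave 0.386-fold, 0.566-fold and 0.621-fold, and Cry2 gave 1.46-fold, 1.53-fold and 1.68-fold. Per1 gave 1.11-fold, 1.15-fold and 1.81-fold, so control was lowest for these 4 genes, while Cry1 gave 2.44-fold, 3.30-fold and 2.30-fold and was highest with doxorubicin.

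Set against all genes, this ratio was past 1.5-fold lower with doxorubicin than in control for 5 of 10 clock genes (Per2, Per3, Nr1d1, Nr1d2, Dbp), against 4.92% of 8014 genes. It was past 1.5-fold higher for Arntl alone, against 5.49%. With doxorubicin plus ACY-1083 it was past 1.5-fold higher than with doxorubicin for 6 of 10 (Per1, Per2, Per3, Nr1d1, Nr1d2, Dbp), against 17.2% of 10141 genes, and past 1.5-fold lower for 0, against 9.14%. Both comparisons use the doxorubicin library, so the second is no separate evidence on that library. Between doxorubicin plus ACY-1083 and control, which leaves the doxorubicin library out, it was past 1.5-fold higher for 3 of 10 (Per1, Arntl, Clock), against 16.9% of 9842 genes, and lower for 0, against 9.16%. Over all genes the median log2 change of this ratio was 0.20 against doxorubicin and 0.19 against control. Without the doxorubicin library Per2 was at 0.998, Nr1d1 at 0.993 and Dbp at 0.885 times the control ratio. This ratio was not matched for intron length, and the shift of the third library with intron length differed between classes. Against control, genes with the shortest introns had a median log2 ratio of -1.15 in astrocyte-like nuclei and -1.45 to -1.57 in neuron classes. Whether Per2, Nr1d1 and Dbp were back at their control ratio was thus not tested. In the third library the astrocyte-like nuclei came mainly from another cluster (855 of 1003 nuclei) than in the first 2 libraries, and neuron markers in them summed to 5043 CPM, so the values of that library carry this difference too.

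**Figure D3:**
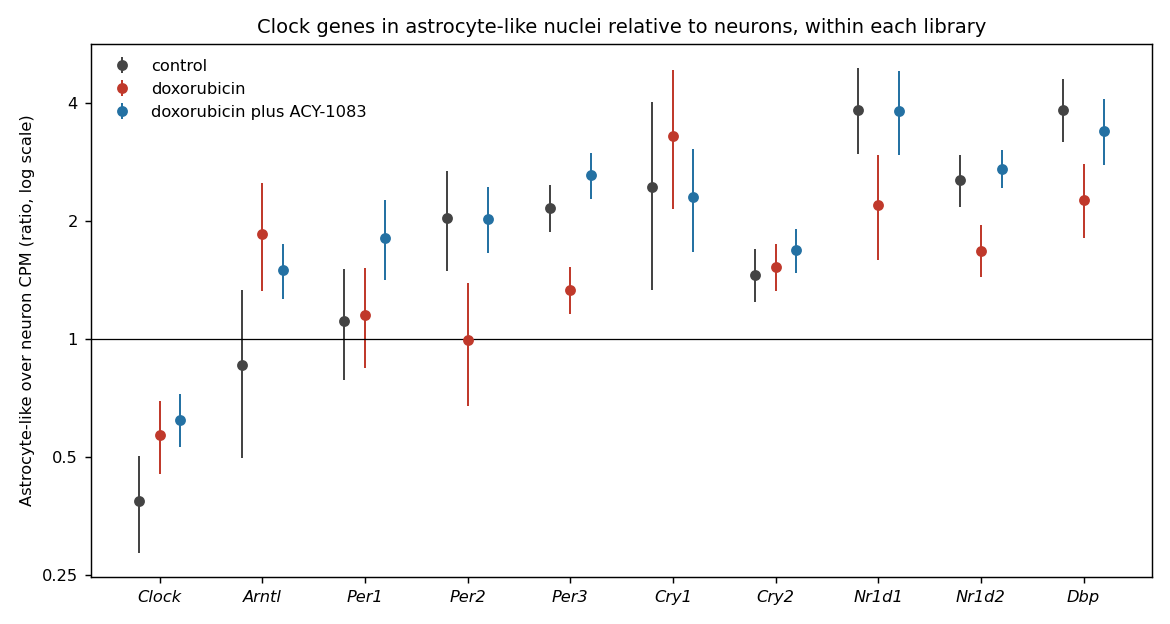
Ratio of CPM in astrocyte-like nuclei to CPM in the 5 summed neuron classes (y axis, log scale) for each clock gene (x axis) in each of the 3 libraries. Points are single libraries and bars are 95% exact Clopper-Pearson intervals; for Per2, Per3, Nr1d1, Nr1d2 and Dbp the doxorubicin point is the lowest of the 3, for Per1, Cry2, Arntl and Clock the control point is, and for Cry1 the doxorubicin point is the highest.

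The second comparison asks how the clock genes differed between doxorubicin plus ACY-1083 and doxorubicin. Here the share of all gene and class pairs past 1.5-fold was 36.7% lower and 30.1% higher, so counts of clock genes say little. Of 89 clock pairs with the minimum, 43 were past 1.5-fold lower (48.3%) and 12 past 1.5-fold higher (13.5%). With TMM scaling (a trimmed mean that sets most genes level) the counts were 32 and 14, against 27.2% and 36.2% of all pairs. TMM moved the median log2 ratio of all genes in all kept nuclei by 0.26, and a total without Malat1 and mitochondrial genes moved it by -0.27. In all kept nuclei, Per2 and Clock turned from below 0 to above 0 under TMM, and Cry1 from above 0 to below 0 with the total without Malat1.

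In all kept nuclei 6 of 10 genes were past 1.5-fold lower (39.9% of all genes) and 1 past 1.5-fold higher (31.1%). Dbp, with 2.12 kb of introns, had 43.2 CPM with doxorubicin and 19.1 with doxorubicin plus ACY-1083, a ratio of 0.442 (0.404 to 0.483). Nr1d1, with 4.33 kb, was at 0.478 (0.423 to 0.541), and Per1, with 9.11 kb, at 0.516 (0.473 to 0.563). At the long end Arntl, with 99.1 kb, had 24.2 and 48.2 CPM, a ratio of 1.99 (1.81 to 2.199). Divided by the median ratio of all genes in the same intron-length bin, the same 4 genes were at 0.979, 0.876, 0.828 and 1.22.

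**Figure D4:**
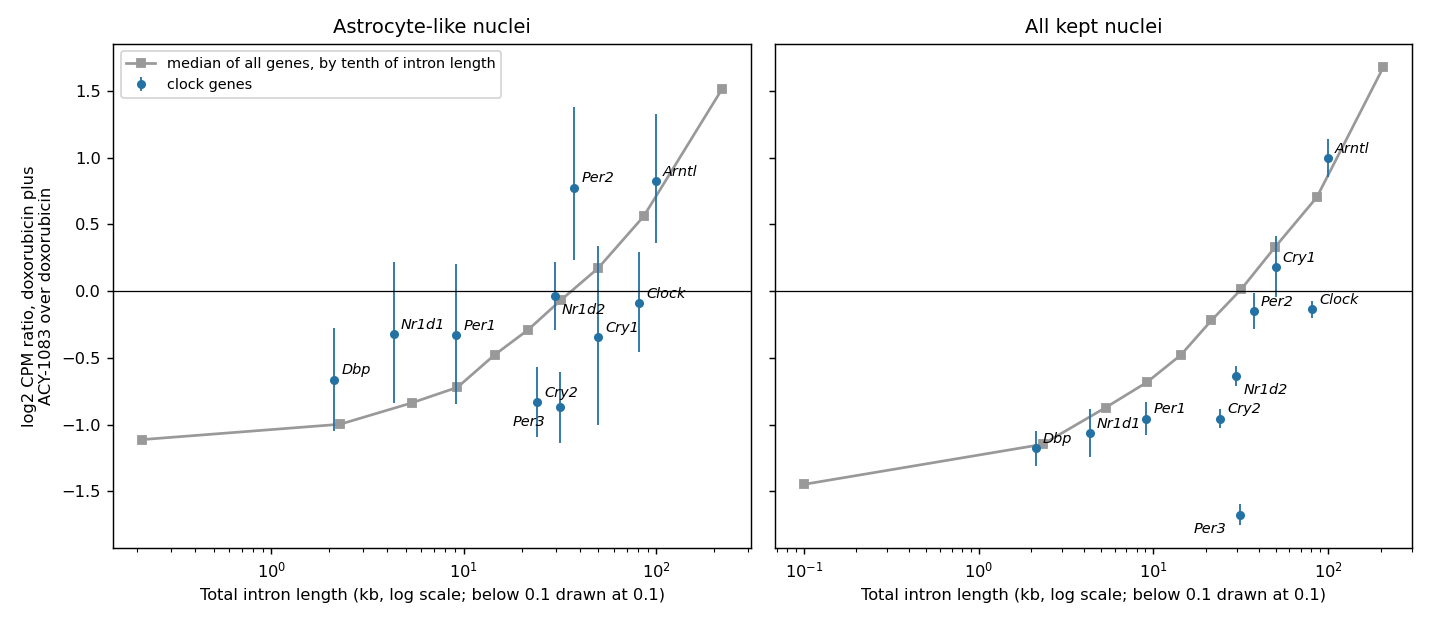
Log2 ratio of CPM, doxorubicin plus ACY-1083 over doxorubicin (y axis), against total intron length in kb (x axis, log scale), in astrocyte-like nuclei (left) and all kept nuclei (right). Circles are clock genes with 95% exact Clopper-Pearson intervals and squares are medians of all genes in each intron-length bin; Dbp, Nr1d1 and Arntl lie near the squares in all kept nuclei and Per3 lies 1.69 below them on the log2 scale.

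Relative to genes of like intron length, 29 of the 89 clock pairs were past 1.5-fold lower (18.6% of all pairs) and 7 past 1.5-fold higher (25.4%). Per3 made up 10 of the 29, with 138.3 CPM in all kept nuclei with doxorubicin and 43.3 with doxorubicin plus ACY-1083, or 0.310 relative to its bin. It was lower in 11 of 11 classes on this scale, and its overlap with Camta1 on the same strand bears on how reads inside introns are assigned. Clock made up 8 of the 29, at 0.558 in all kept nuclei, and Cry2 and Nr1d2 made up 5 each, at 0.600 and 0.639. Dbp and Nr1d1 had 0 classes past 1.5-fold in either direction on this scale.

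In astrocyte-like nuclei, 3 of 10 genes were past 1.5-fold lower (34.1% of all genes) and 2 past 1.5-fold higher (27.2%) as measured, near the shares of all genes. Per2 went from 30.04 CPM with doxorubicin to 52.0 with doxorubicin plus ACY-1083, a ratio of 1.71 (1.18 to 2.60), and 1.80 relative to its bin. Arntl went from 41.2 to 73.5 CPM, a ratio of 1.77 (1.29 to 2.51), and 1.20 relative to its bin. Dbp went from 89.3 to 56.4 CPM, a ratio of 0.632 (0.484 to 0.828), and 1.26 relative to its bin, so its direction depended on the scale. Nr1d1 went from 44.6 to 35.8 CPM, a ratio of 0.800 (0.559 to 1.16), and 1.43 relative to its bin. Relative to their bins, 2 of 10 were past 1.5-fold lower (15% of all genes) and 1 past 1.5-fold higher (22.1%): Per3 at 0.573 and Clock at 0.638 were the lower ones, and Per2 the higher.

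Of 20 other genes of the clock and its neighbours (kinases, F-box proteins, the ROR receptors and the PAR bZIP factors among them), all had the minimum in all kept nuclei. Between doxorubicin and control, 0 were past 1.5-fold in either direction (1.55% of all genes lower, 1.76% higher). Of the 20, 17 were below 0, against 60.1% of all genes. The median log2 ratio was -0.11, against -0.04 over all genes. The lowest 2 were Ciart at -0.26 and Btrc at -0.22, and Nfil3 was above 0 at 0.08. In astrocyte-like nuclei 14 of the 20 had the minimum, and 11 were below 0, against 53.5% of all genes. Noct alone was past 1.5-fold on the higher side, at 0.67 (4.39% of all genes). The median of the 14 was -0.16, against -0.03 over all genes. Between doxorubicin plus ACY-1083 and doxorubicin, 9 of the 20 were past 1.5-fold lower (39.9% of all genes) and 3 higher (31.1%) in all kept nuclei. Relative to their intron-length bins 3 were lower (17.8% of all genes) and 4 higher (28.2%). The lowest was Bhlhe41 at -1.33, and the highest were Rora at 4.68 and Npas2 at 2.68. Rora and Npas2 have 721 and 165 kb of introns and Bhlhe41 has 0.596 kb. Relative to their intron-length bins the log2 ratios were 3.004 for Rora, 1.002 for Npas2 and 0.12 for Bhlhe41.

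The genes most like each clock gene over the 11 control classes were found by Pearson's r of log2(CPM + 20) among 8215 genes. Dbp was most like Slc27a1 (r = 0.92, with 0.80 for doxorubicin and 0.86 for doxorubicin plus ACY-1083) and Ptar1 (0.92, 0.72, 0.79), and Nr1d1 was most like Them4 (0.93, 0.67, 0.88) and Sfxn5 (0.92, 0.62, 0.71). Nr1d2 was closest to Cox8a (0.94, 0.62, 0.94) and Timm17a (0.94, 0.31, 0.85). Per1 was closest to Intu (0.96, 0.78, 0.80) and Htr2c (0.92, 0.75, 0.64), Per2 to Ccdc138 (0.91, 0.66, 0.79), and Per3 to Maz (0.89, 0.15, 0.79) and Klf9 (0.86, 0.67, 0.88). Cry1 was closest to Tssc4 (0.98, 0.61, 0.76) and Aldh4a1 (0.97, 0.89, 0.60), and Cry2 to Ttyh1 (0.87, 0.56, 0.61) and Adgrl1 (0.87, 0.59, 0.52). Arntl was closest to Ap1ar (0.93, 0.01, 0.60) and Tbck (0.93, 0.38, -0.37), and Clock to Smg6 (0.95, 0.44, 0.58). The similar genes were chosen by their r in control alone, so the control values are high by that choice.

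Over the 11 classes, the order of Dbp was the most alike between libraries (Spearman 0.93 to 0.96), and that of Arntl and Clock the least (-0.15 to 0.70 and 0.06 to 0.35). These values describe 11 points that share each library's depth.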

How the data were processed

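The deposited tables hold raw UMI counts per gene and nucleus, with no normalization, which the authors made with Cell Ranger (4.0.0 and 5.0.0 per the file headers, 6.0.0 and mm10 per the submitters' processing notes). Neither labels nor headers state whether reads in introns were counted. Barcodes with at least 300 genes, under 5% mitochondrial UMIs and a Scrublet score of at most 0.25 were kept; the automatic Scrublet threshold marked 3, 1 and 1 barcodes and was replaced. Nuclei were clustered with scanpy 1.11.5 on 2000 variable genes without the clock genes, centred and scaled within each library, by Leiden at resolution 1. Of 28 clusters, 23 were named from marker lists and 5 were left unnamed. In the doxorubicin plus ACY-1083 library, dentate granule, CA1, CA2/CA3, oligodendrocyte and astrocyte nuclei fell mostly into other clusters than in the first 2 libraries. Counts were summed per class and library. Intron lengths came from GENCODE vM21 (32235 of 32285 genes matched). Ratios and intervals were tested on simulated data. TMM used edgeR 4.0.16. The members and gene lists were chosen with earlier results of these data known, and every clock gene was named in every class. A few values of other genes are not reported here.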

Additional observations from a re-analysis of the deposited data

How the results depend on the processing

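Per2, Nr1d1 and Dbp stayed past 1.5-fold lower in astrocyte-like nuclei with doxorubicin under every alternative in which they kept the UMI minimum, as Arntl stayed past 1.5-fold higher. Of 12 alternatives, Per2 kept it in 10, Nr1d1 in 11, Dbp in 12 and Arntl in 9. The 100-UMI minimum leaves the ratio of a kept pair unchanged, also in the counts of single-gene values below. Thinning each nucleus to 1000 UMIs left 48 of the 78 pairs and 4 past 1.5-fold lower. A minimum of 100 UMIs left 53 pairs, with 4 lower and 0 higher. Keeping doublets gave 2 higher pairs and a floor of 600 genes per nucleus gave 0. With doublets kept, Cry1 in astrocyte-like nuclei was the added one, at 1.55-fold. For the ratio of astrocyte-like nuclei to neurons, doxorubicin against control, the count of genes past 1.5-fold lower was 3 of 8 with at least 600 genes and 2 of 4 after thinning. The count past 1.5-fold higher was 0 with at least 600 genes, after thinning or with at least 100 UMIs, and 2 at Leiden resolution 0.5, when the third library was not clustered, or without the smallest astrocyte cluster. Against control, doxorubicin plus ACY-1083 had 0 genes past 1.5-fold higher with at least 600 genes or after thinning. After thinning 1 gene, not 4, was highest in astrocyte-like nuclei in each library. Between doxorubicin plus ACY-1083 and doxorubicin, division by the median of the same intron-length bin gave 7 higher pairs in place of 12 and reversed Dbp in astrocyte-like nuclei to a log2 ratio of 0.33. Of the single-gene values, 281 of 290 between doxorubicin and control, and 175 of 218 between the other libraries, stayed on their side of 1.5-fold and within the counting interval. The ratio of astrocyte-like nuclei to neurons with all its alternatives, leaving out the smallest astrocyte cluster or shared barcodes, and the intron division of the first comparison were chosen after seeing the data. At resolution 0.5 the CA2/CA3 class was unnamed and the CA1 class held too few control and doxorubicin nuclei, so neither gave a value. The counting intervals do not cover differences between mice, and Cry1, fibroblast-like and choroid plexus epithelium-like values are limited by depth. No paired analysis was possible because each group had 1 library and the labels carry no shared replicate numbers.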
